A study of Mus musculus with 6 samples.

Results

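The 9 genes described here encode digestive proteins of the intestinal brush border: *Sis*, *Lct*, *Mgam*, *Treh*, *Anpep*, *Dpp4*, *Mep1a*, *Alpi* and *Slc5a1*. They were chosen by name, as 9 of the 19178 genes in the count tables, and all 9 were present in all 6 tables. Their counts were read in the 4890 of 13191 cell barcodes with 300 or more genes detected and no more than 25% of counts from mitochondrial genes. Drop-seq, a droplet method that counts messenger RNA molecules (UMIs) per cell barcode, had been applied to crypt cells of C57BL6 mice aged 10 weeks. The knockout group lacks *Ptger4*, the gene of the prostaglandin E2 receptor EP4, in the epithelium, and the flox group carries the floxed gene as control. Each genotype had 3 collections from 2 biological replicates, and no mouse or cell was treated. Collections 1 and 2 of each genotype were read from their codes as biological replicate 1, and collection 3 as replicate 2. The Cre driver, the deleted part of *Ptger4* and the number of mice per replicate were not stated in the labels or notes used.

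The brush border is the carpet of microvilli on the luminal face of enterocytes, the absorptive cells of the intestine. Enzymes anchored in it cut disaccharides and short peptides into sugars and amino acids, which transporters in the same membrane take up. Enterocytes arise from crypt stem cells and gain these enzymes as they move towards the villus, and several of the enzymes are known to be graded along the length of the intestine. The factors CDX2, HNF4A and GATA4 are known regulators of genes of this kind.

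Promoters of 4 of the genes are shown because these carried the letters of a CDX or an HNF4 site. Each is the 250 bases before the gene's start, from RefSeq on build GRCm38.p6, printed 5′ to 3′ on the gene's own strand (here minus for *Sis*, *Lct* and *Alpi* and plus for *Treh*). Capitals mark motif matches on either strand. The windows are chr3:72967864-72968113 for *Sis*, chr1:128328319-128328568 for *Lct*, chr1:87101607-87101856 for *Alpi* and chr9:44672983-44673232 for *Treh*.
Sis: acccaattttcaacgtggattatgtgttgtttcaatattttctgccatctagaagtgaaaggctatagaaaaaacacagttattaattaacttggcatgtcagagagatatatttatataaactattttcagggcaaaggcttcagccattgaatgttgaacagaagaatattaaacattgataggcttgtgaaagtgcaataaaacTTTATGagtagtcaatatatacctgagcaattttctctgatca
Lct: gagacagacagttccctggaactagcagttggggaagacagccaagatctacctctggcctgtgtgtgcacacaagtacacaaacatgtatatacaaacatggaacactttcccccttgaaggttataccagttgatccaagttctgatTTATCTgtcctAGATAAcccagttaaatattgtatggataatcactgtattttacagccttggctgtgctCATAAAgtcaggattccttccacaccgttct
Alpi: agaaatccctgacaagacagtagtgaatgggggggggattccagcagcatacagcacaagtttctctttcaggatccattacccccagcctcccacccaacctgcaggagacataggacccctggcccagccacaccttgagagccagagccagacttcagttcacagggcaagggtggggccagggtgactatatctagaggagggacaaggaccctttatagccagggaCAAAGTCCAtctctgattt
Treh: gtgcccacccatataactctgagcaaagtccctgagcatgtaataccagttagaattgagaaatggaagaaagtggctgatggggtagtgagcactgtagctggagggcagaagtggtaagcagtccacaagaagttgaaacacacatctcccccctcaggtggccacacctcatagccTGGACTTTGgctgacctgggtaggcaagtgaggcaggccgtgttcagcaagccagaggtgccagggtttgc

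The letters CATAAA of a CDX site stood in the promoters of *Lct* and *Sis* and in 10.8% of 32851 promoters of the same length. The letters CAAAGTCCA of an HNF4 site stood in those of *Alpi* and *Treh* and in 0.384% of all promoters. In the *Alpi* promoter this match begins 19 bases before the start. The GATA letters AGATAA were found for *Lct*, *Dpp4* and *Mgam* and in 9.99% of all promoters. These matches describe letters within a window and do not show binding. The RefSeq window of *Anpep* (chr7:79848211-79848460) lies inside the gene model used for positions, so a second start of that gene was not searched.

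The knockout collections gave 754, 703 and 981 kept cells and the flox collections 1053, 473 and 926, with a median of 1070 to 1471.5 counts per cell. *Ptger4* counts were 17.4, 19.1 and 24.5 CPM (counts per 1000000 counts) in the knockout collections and 11.9, 13.6 and 15.1 CPM in the flox collections. Drop-seq reads the 3′ end of a transcript, and since the deleted part is not given here, these counts do not check the genotype labels. *Xist* counts were 0 and 11 in knockout collections 1 and 2 and 1584 in collection 3, and 1, 0 and 1457 in the flox collections, so that replicate and sex coincide. Kept cells shared 107 barcodes between pairs of collections, and they did so only within 2 sets. One set was knockout 1 with flox 1 and flox 2, the other knockout 2 and knockout 3 with flox 3. Leaving the shared barcodes out brought no gene of the 9 past the test described below.

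Cells were grouped without the 9 genes, into 15 clusters, so that their levels played no part in defining a class. One cluster of 410 cells had 18 of 19 enterocyte markers enriched and is called enterocyte-like. Values are given throughout in the order of collections 1 to 3. The class held 73, 55 and 68 knockout cells and 89, 33 and 92 flox cells. Crypt preparations of this kind are dominated by other cells, and these 410 cells were 8.38% of kept cells. Of the clusters, 4 stayed unnamed, of which 3 held over 50 cells and are called by their leading gene (*Gm26917*, *Mgat4c* and *Reg3g*). The *Mgat4c*-led cluster of 483 cells had 5 of 7 ileal enterocyte markers enriched.

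All 9 genes had their highest level in the enterocyte-like class among 12 classes of at least 50 cells. The share of all genes with their highest level there was not counted. In 6 of the 9 (*Sis*, *Lct*, *Mgam*, *Treh*, *Dpp4* and *Slc5a1*) the lowest enterocyte-like collection stood above the highest collection of every other class, as it did for 1.32% of the 10168 genes with at least 50 counts. For *Anpep*, *Mep1a* and *Alpi* the lowest enterocyte-like collection was exceeded by single collections of the tuft-like class (53 cells) or the Paneth-like class (177 cells), where few cells stand behind each value. Of all UMIs of the 9 genes, 40.9% came from enterocyte-like cells, beside 10.5% of the UMIs of all genes. The enterocyte-like share was 88.9% for *Lct* and 80.7% for *Treh*, 68.3% for *Anpep*, 54.2% for *Sis*, 53.1% for *Slc5a1* and 51.3% for *Mep1a*. It was 46.6% for *Dpp4*, 45.0% for *Alpi* and 26.3% for *Mgam*.

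**Figure D1:**
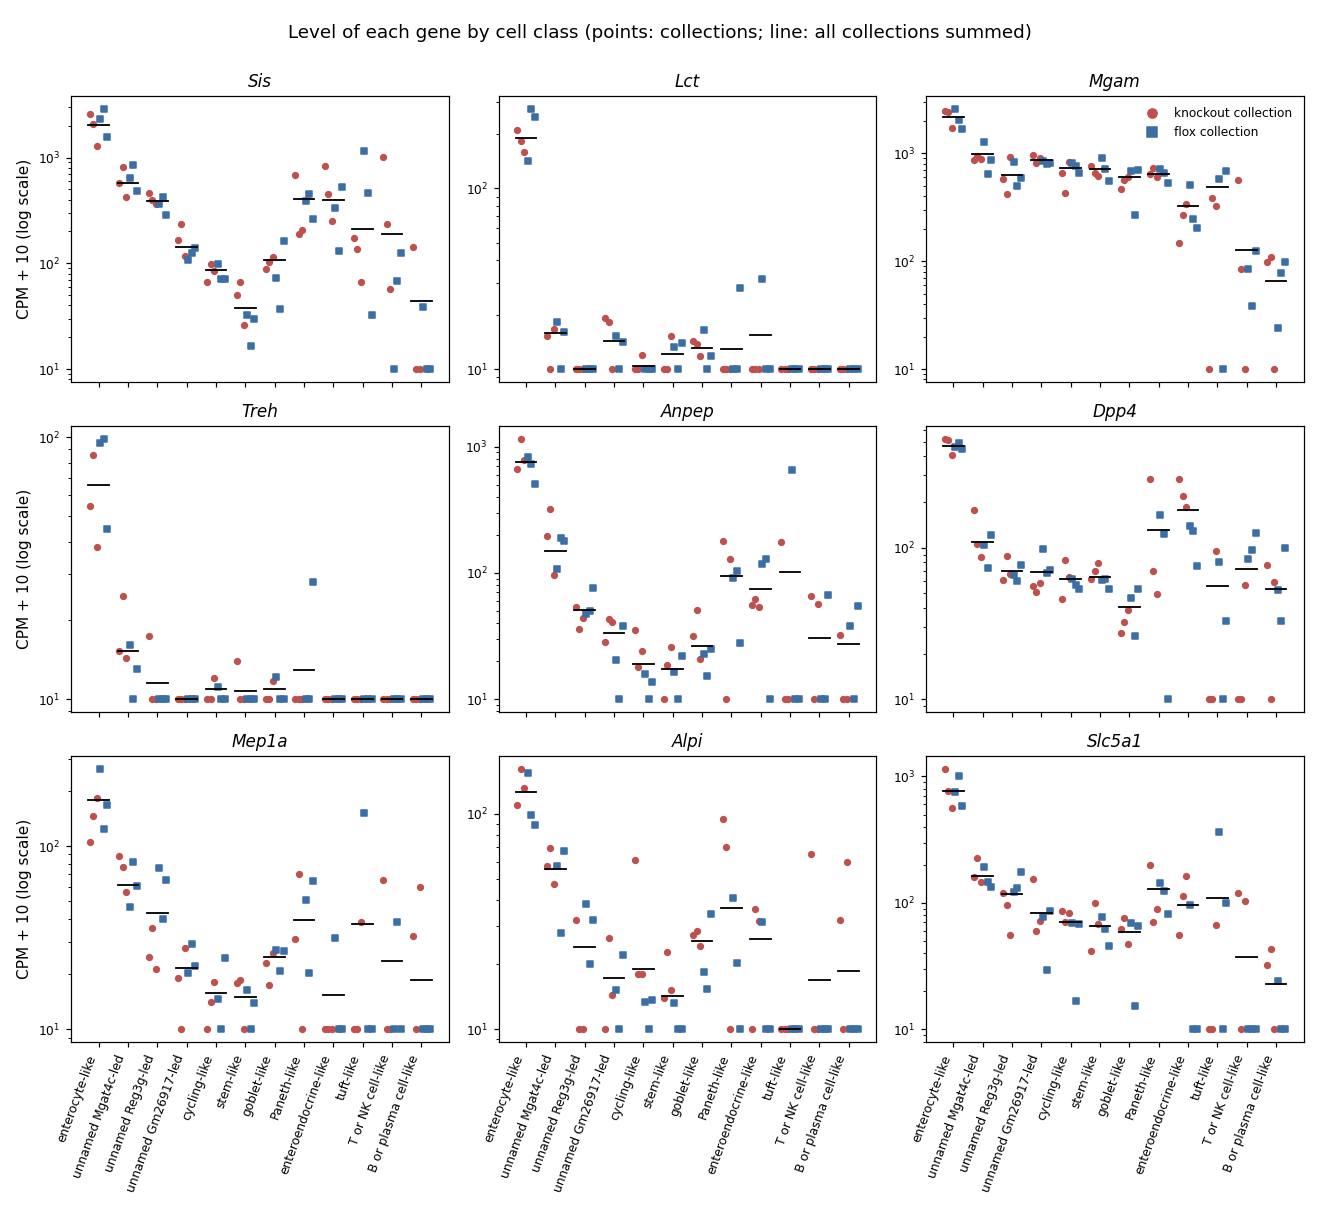
Level of each gene (CPM + 10, log scale) in 12 cell classes; points are single collections (circles knockout, squares flox) and lines are all collections summed. All 9 genes are highest in enterocyte-like cells. With collections summed, *Mgam* alone of the 9 stays above 300 CPM in every epithelial class. Single collections lie lower, down to 0 CPM in tuft-like, 136 in enteroendocrine-like and 259 in goblet-like cells.

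Among the disaccharidases, *Sis* encodes sucrase-isomaltase, which cuts sucrose and the branch points of starch. Its level in enterocyte-like cells was 2593, 2046 and 1290 CPM in the knockout collections and 2303, 2865 and 1549 CPM in the flox collections. The next class was the *Mgat4c*-led cluster at 564 CPM (417 to 846 over collections), whose range did not reach that of the enterocyte-like class. Below it stood Paneth-like cells at 394 CPM, enteroendocrine-like cells at 384 and the *Reg3g*-led cluster at 378, which did not differ beyond their spread. Tuft-like cells followed at 201 CPM and T or NK cell-like cells at 179, each carried by 1 collection. Without flox collection 1 the tuft-like level was 62.8 CPM (320.6 without flox collection 3), and without knockout collection 1 the T or NK cell-like level was 62.8 CPM. Then came the *Gm26917*-led cluster at 132, goblet-like cells at 96.9 and cycling-like cells at 77.0. B or plasma cell-like cells, at 34.4 CPM, and stem-like cells, at 28.02 CPM, were lowest. In this order only the step from the enterocyte-like class to the next separated neighbours beyond the range of their collections.

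*Mgam* encodes maltase-glucoamylase, which releases glucose from the ends of starch chains, and it was spread more widely. It measured 2459, 2415 and 1717 CPM in the enterocyte-like cells of the knockout collections and 2571, 2019 and 1671 CPM in those of the flox collections. It was also counted at 972 CPM in the *Mgat4c*-led cluster, 852 in the *Gm26917*-led cluster, 728 in cycling-like, 708 in stem-like, 641 in Paneth-like, 619 in the *Reg3g*-led, 590 in goblet-like, 474 in tuft-like and 314 in enteroendocrine-like cells. T or NK cell-like cells, at 117 CPM (54.9 without knockout collection 1), and B or plasma cell-like cells, at 55.9 CPM, had the lowest levels. Stem-like cells of single collections ran from 544 to 904 CPM, above the highest B or plasma cell-like collection (99.7 CPM). The neighbours from the *Mgat4c*-led cluster downward overlapped in their collections.

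*Lct* encodes lactase and *Treh* encodes trehalase, which cuts the fungal and insect sugar trehalose. With collections summed, both were counted below 6 CPM in each of the other 11 classes. For both, 0 UMIs in tuft-like and T or NK cell-like cells allow up to 27.3 and 20.6 CPM there. In enterocyte-like cells *Lct* measured 199, 173 and 149 CPM in the knockout collections and 131, 265 and 239 CPM in the flox collections, with 5.82 CPM in the next class. *Treh* measured 44.9, 75.2 and 28.2 CPM in the knockout collections and 85.2, 88.3 and 34.8 CPM in the flox collections, with 5.24 CPM in the next class. No *Lct* UMI was counted in B or plasma cell-like cells, which allows up to 12.9 CPM there, nor in the *Reg3g*-led cluster, which allows up to 4.71 CPM. *Treh* rests on 83 UMIs in all and *Lct* on 243, so that their values in small classes are coarse.

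The peptidases were next in the order of roles. *Anpep* encodes aminopeptidase N, which removes amino acids from the front of peptides, and measured 653, 1136 and 770 CPM in the enterocyte-like cells of the knockout collections and 825, 719 and 496 CPM in those of the flox collections. It fell to 140 CPM in the *Mgat4c*-led cluster, and was at 7.19 CPM in stem-like and 8.95 CPM in cycling-like cells. *Dpp4* encodes dipeptidyl peptidase 4, which removes dipeptides and is also known on T cells as CD26. Its enterocyte-like levels were 509, 504.1 and 399 CPM in the knockout and 452, 480 and 435 CPM in the flox collections, the narrowest spread of the 9 genes in the flox group (SD of 22.4 CPM around a mean of 455.5, n = 3). *Dpp4* was at 168 CPM in enteroendocrine-like cells and at 61.8 CPM in T or NK cell-like cells, close to its 53.9 CPM in stem-like and 60.8 CPM in all cells outside the enterocyte-like class. *Mep1a* encodes a subunit of the metalloprotease meprin and measured 94.8, 135 and 173 CPM in the knockout and 252, 114 and 157 CPM in the flox collections.

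*Alpi* encodes intestinal alkaline phosphatase, which removes phosphate from nucleotides and bacterial endotoxin. Its enterocyte-like levels were 99.7, 150.5 and 121 CPM in the knockout collections and 144, 88.3 and 78.3 CPM in the flox collections. The *Mgat4c*-led cluster followed at 45.4 CPM and Paneth-like cells at 26.5 CPM. *Slc5a1* encodes SGLT1, the sodium-coupled carrier that takes up the glucose and galactose the disaccharidases release. It measured 1127, 752 and 552 CPM in the knockout and 750, 997 and 574 CPM in the flox collections, against 154 CPM in the *Mgat4c*-led cluster and 56.0 CPM in stem-like cells. In both genes the enterocyte-like level was the highest, and only for *Slc5a1* was it free of overlap with every other class over the collections.

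Some of the low levels can be set beside RNA outside cells. The 3763 barcodes with fewer than 100 counts, taken as a measure of free RNA, held 628 CPM of *Mgam*, 350 of *Sis*, 124 of *Anpep*, 115 of *Slc5a1*, 59.8 of *Dpp4*, 34.2 of *Mep1a*, 25.6 of *Alpi*, 21.4 of *Lct* and 12.8 of *Treh*. *Sis* in stem-like cells (28.02 CPM) was close to its level in B or plasma cell-like cells (34.4 CPM), which should lack it. Without knockout collection 1, which held 6 of the 8 *Sis* UMIs of the latter, the values were 25.4 and 10.7 CPM, so that the order of these 2 classes rests on that collection. *Mgam* was at 708 CPM in stem-like cells, beside 628 CPM in the barcodes with fewer than 100 counts. It was at 55.9 CPM in B or plasma cell-like cells and at 117 CPM in T or NK cell-like cells, whose highest collection reached 553 CPM. The Paneth gene *Defa22* was at 6877 CPM in the barcodes with fewer than 100 counts and at 123 CPM in stem-like cells. How much of the stem-like *Mgam* level is free RNA was not tested.

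Cells with a UMI were counted as well. After each cell was thinned to 500 UMIs, 56.8% of 407 enterocyte-like cells had a *Sis* UMI (exact Clopper-Pearson 95% interval 51.8% to 61.6%), against 2.06% of 194 B or plasma cell-like cells and 1.77% of 736 stem-like cells. An *Mgam* UMI was found in 61.7% of enterocyte-like cells, in 30.2% of stem-like cells (26.9% to 33.6%) and in 3.09% of B or plasma cell-like cells (1.14% to 6.61%). For *Slc5a1* the shares were 30.7%, 2.99% and 0 of 194, which allows up to 1.55% in the last. Unthinned median depths were 1905.5, 1276.5 and 682.5 counts in these 3 classes, and 3, 40 and 42 of their cells were too shallow to enter. Intervals and limits cover counting error only.

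Within the enterocyte-like class, cells were split by sub-clustering, again without the 9 genes. A sub-cluster of 92 cells had 12 of 14 proximal markers enriched (such as *Fabp1*, *Apoa4* and *Leap2*) and is called proximal. One of 89 cells had 4 of 7 ileal markers enriched and 12 proximal markers depleted, was led by *Saa1* and *Slc10a2*, the ileal bile acid carrier, and is called ileal. The summed proximal list measured 40761 CPM in proximal and 8163 CPM in ileal cells, and the ileal list 4233 and 32086 CPM. By collection, the ileal list in ileal cells was 38544, 30797 and 33856 CPM (knockout) and 54666, 42185 and 17751 CPM (flox). The value of flox collection 3 was below the 19712 CPM of the cells in neither segment, all collections summed. In flox collection 3 itself such cells were at 9799 CPM. The other 229 cells lay between, including 72 cells led by the goblet genes *Zg16* and *Tff3* with a median of 5778.5 counts. Proximal cells numbered 18, 11 and 7 in the knockout collections and 23, 9 and 24 in the flox collections. Ileal cells numbered 6, 9 and 26 in the knockout and 14, 8 and 26 in the flox collections. Other splits changed these numbers most in collection 3. With the 9 genes kept for clustering, 30 cells were ileal, 4 of them in collection 3 of each genotype. At sub-cluster resolution 2.0 there were 48, with 8 (knockout) and 6 (flox) in collection 3. At resolution 0.5 there were 206, with 48 and 52. The split was settled after several had been viewed beside values of the 9 genes, and segment was not a label of any sample, so these differences are given as a description with no test.

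Of the 9 genes, 8 had a higher level in proximal than in ileal cells and *Mep1a* a lower one. On the scale of CPM + 10, 6 of the 9 were at least 2-fold higher in proximal cells, where 6.76% of the 5026 genes compared were, and 1 of the 9 was at least 2-fold higher in ileal cells, where 5.39% were. The median log2 difference was 1.06 for the 9 genes and -0.01 for all genes compared. Their summed level was 9346 CPM in proximal and 4444 CPM in ileal cells and was higher in proximal cells of all 6 collections.

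*Lct* showed the widest gap, with 464 CPM from 107 UMIs in proximal cells and 23.7 CPM from 5 UMIs in ileal cells, a 19.6-fold ratio. With single collections left out, the ratio ran from 16.0-fold (without knockout collection 3) to 32.2-fold (without flox collection 3). By collection *Lct* measured 548, 108 and 706 CPM in proximal cells of the knockout and 354, 583 and 590 CPM in those of the flox group. In ileal cells it was 0, 38.9 and 14.9 CPM in the knockout and 0, 0 and 48.8 CPM in the flox collections. The lowest proximal collection, knockout 2, was above the highest ileal one. *Treh* was 126 CPM in proximal and 19.0 CPM in ileal cells, the latter from 4 UMIs, and was higher in proximal cells of all 6 collections. Without flox collection 1 these levels were 102.5 and 10.6 CPM. Flox collection 1 was the only one with an ileal *Treh* level above 20 CPM, at 90.0.

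*Slc5a1* was 3.57-fold higher in proximal cells. It measured 1299, 1150 and 578 CPM in proximal cells of the knockout and 1109, 1128 and 1096 CPM in those of the flox collections. In ileal cells the values were 468, 545 and 179 CPM and 270, 358 and 325 CPM, and the ranges of proximal and ileal cells did not overlap. *Sis* was 2.09-fold higher in proximal cells, at 2769 against 1323 CPM, and *Mgam* 2.02-fold, at 2986 against 1475 CPM. Both were higher in proximal cells of all 6 collections, although flox collection 2 had nearly the same *Sis* level in proximal (2256 CPM) and ileal cells (2150 CPM).

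Among the peptidases, *Dpp4* was 2.19-fold higher in proximal cells (767 against 351 CPM), in 5 of 6 collections. *Mep1a* went the other way in all 6 collections, with 86.7 CPM in proximal and 204 CPM in ileal cells, a 2.35-fold ratio on 20 and 43 UMIs. Its ileal values were 468, 77.9 and 224 CPM in the knockout and 315, 154 and 146 CPM in the flox collections, and its proximal values 60.9, 0 and 64.2 CPM and 123, 77.8 and 126 CPM. Proximal and ileal ranges of *Mep1a* overlapped, since ileal cells of knockout collection 2 were at 77.9 CPM. *Anpep* was 888 against 650 CPM, higher in proximal cells of 5 of 6 collections, and this direction turned in 3 of 4 other ways of splitting the cells, with log2 differences of -0.36 to -0.41. *Alpi* was 143 against 85.4 CPM, higher in proximal cells of 5 of 6 collections.

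**Figure D2:**
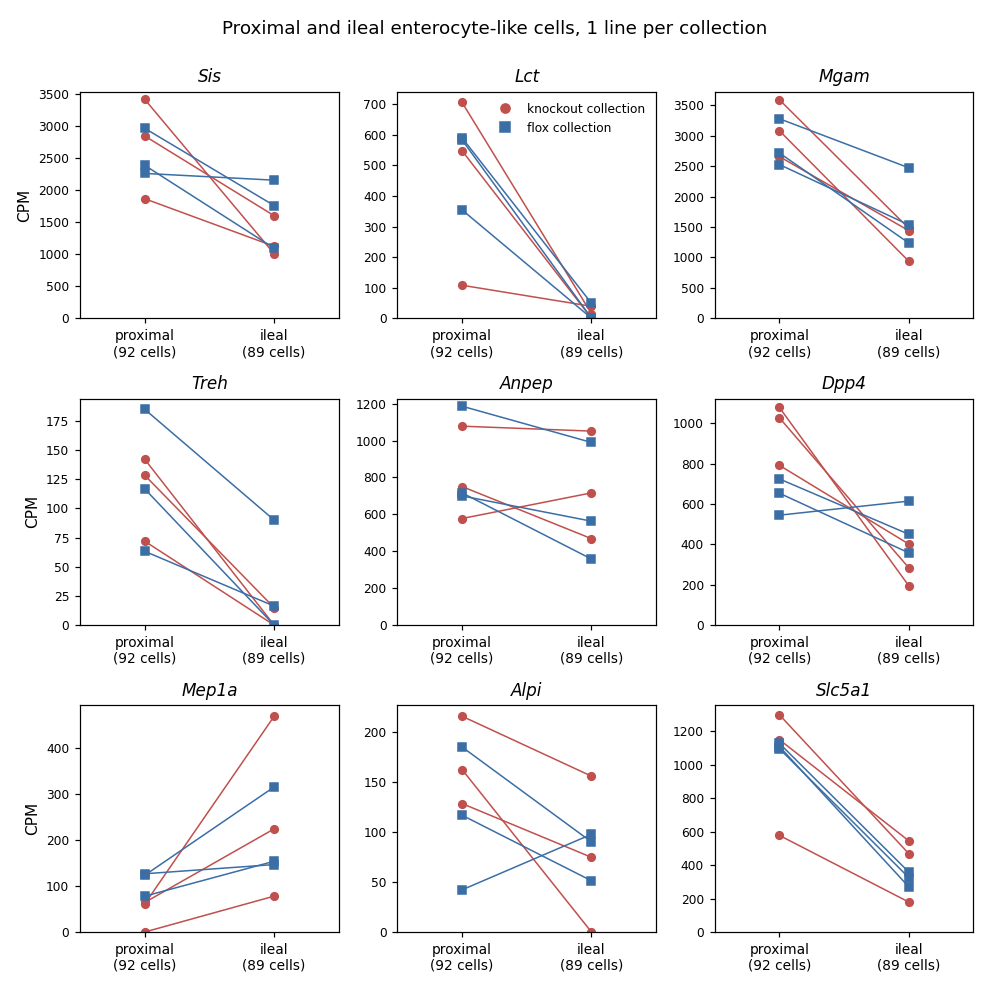
Level (CPM) of each gene in proximal and ileal enterocyte-like cells, with 1 line per collection (circles knockout, squares flox). *Sis*, *Lct*, *Mgam*, *Treh* and *Slc5a1* fall from proximal to ileal in all 6 collections, and *Mep1a* climbs in all 6.

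The comparison of genotypes addressed how the crypt epithelium differs when it lacks EP4. None of the 9 genes passed the test in enterocyte-like cells. The knockout and flox collections overlapped for all 9, and the share of all genes with such an overlap was not counted. The test was edgeR's quasi-likelihood test on counts summed per biological replicate, 2 knockout against 2 flox, with Benjamini-Hochberg adjustment over all genes and a threshold of 0.05. It called 0.0711% of 4222 genes in enterocyte-like cells, and 180 had an unadjusted p under the threshold, none of them among the 9. Log2 fold changes (knockout over flox) were 0.35 for *Anpep* (95% interval -0.13 to 0.82), 0.20 for *Slc5a1* (-0.34 to 0.74) and 0.19 for *Alpi* (-0.49 to 0.88). They were 0.07 for *Dpp4* (-0.39 to 0.53), 0.06 for *Mgam* (-0.43 to 0.54) and -0.07 for *Sis* (-0.63 to 0.50). They were -0.16 for *Lct* (-0.78 to 0.46), -0.42 for *Mep1a* (-1.05 to 0.21) and -0.49 for *Treh* (-1.50 to 0.51). The intervals hold 0 in every case, and for *Lct*, *Treh*, *Anpep*, *Mep1a*, *Alpi* and *Slc5a1* they reach beyond 0.7 on the log2 scale in at least 1 direction.

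**Figure D3:**
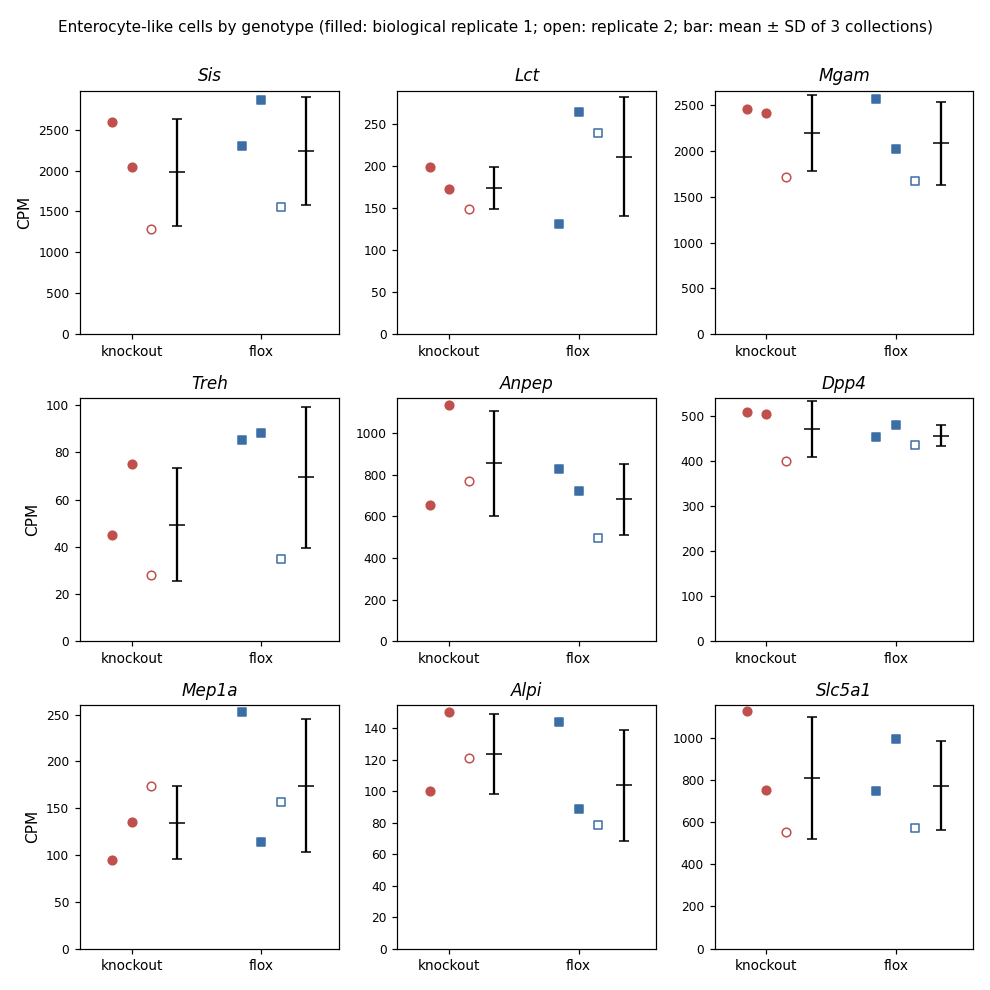
Level (CPM) of each gene in enterocyte-like cells of the 6 collections by genotype; filled symbols are biological replicate 1, open symbols replicate 2, and bars show the mean ± SD of 3 collections. Knockout and flox collections overlap for all 9 genes, and for *Sis*, *Mgam*, *Treh*, *Dpp4* and *Slc5a1* the open symbol is the lowest in both genotypes.

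The summed level of the 9 genes in enterocyte-like cells was 7780, 7388 and 5200 CPM in the knockout collections and 7514, 7635 and 5234 CPM in the flox collections. Collection 3, the female replicate, was below both others in each genotype, and this held for 5 of the 9 genes (*Sis*, *Mgam*, *Treh*, *Dpp4* and *Slc5a1*). The share of all genes with this pattern was not counted, so it may not be particular to these genes. By the main split, ileal cells were 26 of 68 enterocyte-like cells in knockout collection 3 and 26 of 92 in flox collection 3. Other splits changed these numbers. Proximal cells were 7 of 68 and 24 of 92 in these collections. In the others they were 18 of 73 and 11 of 55 (knockout) and 23 of 89 and 9 of 33 (flox). The summed ileal markers in enterocyte-like cells were 14013, 17929 and 23711 CPM in the knockout and 24167, 21756 and 10585 CPM in the flox collections. Sex and replicate cannot be told apart here, with 1 such collection per genotype. The part of the mix of segments was not tested, nor was the lower level of collection 3.

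In all kept cells, 0 of the 9 genes passed the same test by edgeR, which called 0.00947% of 10555 genes, and 235 genes had an unadjusted p under the threshold, again none of the 9. DESeq2 called none of the 9 in either population. The largest fold change among them was that of *Anpep*, at 0.38 (-0.06 to 0.81), with 133, 159 and 109 CPM in the knockout and 114, 90.4 and 93.3 CPM in the flox collections. *Alpi* was at 0.31 (-0.23 to 0.84) and *Slc5a1* at 0.23 (-0.25 to 0.72). *Dpp4* (0.12), *Sis* (0.07), *Mgam* (-0.01), *Lct* (-0.06), *Treh* (-0.12) and *Mep1a* (-0.20) made up the rest. The median was 0.07 for the 9 genes and 0.0019 for all genes tested.

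**Figure D4:**
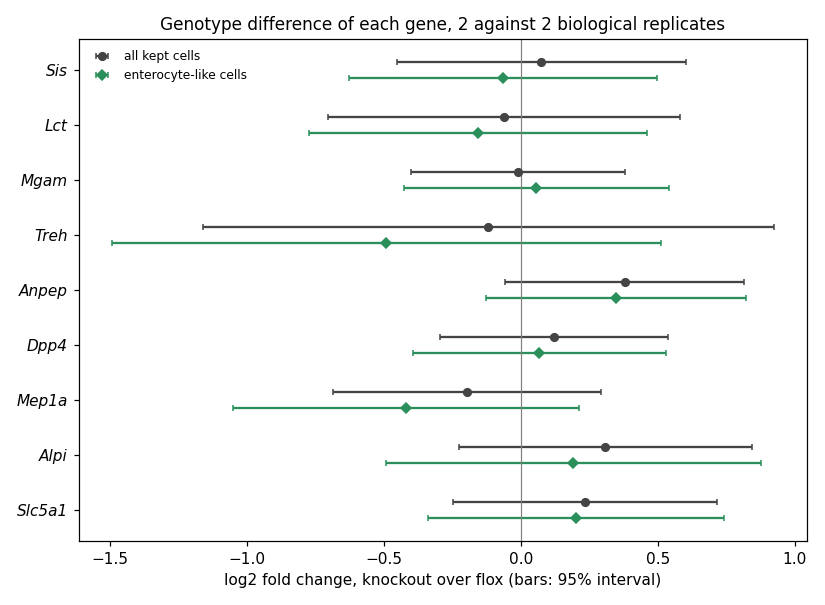
Log2 fold change of each gene, knockout over flox, with its 95% interval from edgeR, in all kept cells (circles) and in enterocyte-like cells (diamonds). Every interval includes 0, and the 2 populations differ in sign for *Sis* and *Mgam* only.

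The genes that did pass were *Mt1*, a metallothionein, in all kept cells (log2 fold change 2.23, edgeR adjusted p = 0.000344) and in enterocyte-like cells *Mt1* (2.04, adjusted p = 0.000977), *Clca3* (2.10, adjusted p = 0.0459) and *Spink4* (1.30, adjusted p = 0.0459). *Clca3* and *Spink4* lead the goblet-like clusters. The summed goblet markers in enterocyte-like cells were 1945, 6831 and 3301 CPM in the knockout and 1883, 2107 and 2332 CPM in the flox collections, and their part in these calls was not tested.

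The number of enterocyte-like cells did not separate the genotypes either. They made up 9.68%, 7.82% and 6.93% of kept cells in the knockout collections and 8.45%, 6.98% and 9.94% in the flox collections (means 8.15% ± 1.403 and 8.45% ± 1.48, SD, n = 3; exact two-sided permutation test, p = 0.7). Proximal cells were 1.56% ± 0.837 in the knockout and 2.23% ± 0.346 in the flox collections (exact p = 0.3), and ileal cells 1.58% ± 0.962 and 1.94% ± 0.771 (exact p = 0.5). All 3 adjusted p-values were 0.7 by Benjamini-Hochberg over the 3 exact tests, and 3 against 3 collections cannot go below 0.1. Since collections 1 and 2 are 1 biological replicate, this n exceeds the 2 replicates per genotype. Over 2 against 2 replicates the exact p-values were 0.667, 0.333 and 0.667, where 0.333 is the smallest possible.

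Other genes of the brush border were read from 4 lists. Of 16 other brush border hydrolases, 14 were in the tables, 11 had a higher level in enterocyte-like than in all kept cells and 10 were higher in proximal than in ileal cells. Of all 18668 genes with a count in kept cells, 26.6% were higher in enterocyte-like cells. Of the 10277 genes with a count in proximal or ileal cells, 46.6% were higher in proximal cells, beside 10 of the 11 such hydrolases. *Mep1b*, which encodes the other meprin subunit, was at 1040 CPM in proximal and 821 CPM in ileal cells. This 1.27-fold ratio, opposite in direction to that of *Mep1a*, was not read by collection or under other splits. *Enpep*, glutamyl aminopeptidase, was at 442 and 403 CPM, and *Naaladl1*, a peptidase of the same surface, at 251.3 and 384 CPM, the only gene of this list higher in ileal cells. *Akp3*, a close relative of *Alpi*, had 4 counts in all.

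Of 14 nutrient transporters, 13 were higher in enterocyte-like than in all kept cells and 11 of the 13 with a count in either segment were higher in proximal than in ileal cells. *Slc6a19*, a carrier of neutral amino acids, was at 234 CPM in proximal and 66.4 CPM in ileal cells, and *Slc7a9*, the light chain of the cystine carrier, at 212 and 171 CPM. All 15 genes of microvillus structure were higher in enterocyte-like cells and 10 in proximal cells, among them the actin bundlers *Vil1* (1192 and 811 CPM) and *Pls1* (1469 and 811 CPM). Of 11 lineage regulators, 7 were higher in enterocyte-like cells, with 5 higher in each segment. *Hnf4g* was at 377 CPM in proximal and 337 CPM in ileal cells, while *Hnf4a* was at 224 CPM in enterocyte-like, and also at 224 CPM in stem-like cells.

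None of the 4 lists had a member past the genotype test by edgeR. In enterocyte-like cells 11 hydrolases, 9 transporters, 15 microvillus genes and 7 regulators could be tested, and their median log2 fold changes were 0.08, -0.27, -0.09 and -0.12, against 0.0031 for all genes tested. One of them had an unadjusted p under the threshold, *Slc1a1*, a glutamate carrier named after its values were seen (log2 fold change -0.95, edgeR adjusted p = 0.999). In all kept cells the medians were 0.21, -0.04, 0.02 and -0.05, over 10, 13, 15 and 10 genes tested, with *Eps8l2*, a microvillus gene also named after its values were seen, at such an unadjusted p (log2 fold change 0.52, edgeR adjusted p = 0.9996).

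The genes whose pattern over 14 clusters of at least 50 cells was most like that of the summed 9 genes were ranked, with the 9 genes and predicted genes passed over, by Pearson's r of log2(CPM + 10), among 6266 genes, as a description. Among the first 10 were *Ugdh* (r = 0.968), *Nudt4* (0.961), *Abcd3* (0.956), *Epb4.1l3*, *Mdh2*, *Cda*, *Naaladl1*, *Gstm3* and *Slc4a4* (0.926). The sum is weighted towards *Mgam*, which gave 9759 of its 19393 UMIs. Of the 9 genes themselves, *Slc5a1* had r = 0.971 with the sum, *Mgam* 0.899 and the rest 0.724 to 0.764. The ranking therefore describes likeness to the sum and not to each of the 9 genes. Among the 9 genes, *Slc5a1* was most like the other 8 together (r = 0.966) and *Mgam* least (r = 0.549). The clusters share libraries and differ in depth, and the enterocyte-like cluster was the highest for all 9 genes.

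On the GENCODE annotation of build GRCm38, *Sis* spans chr3:72888557-72967863, *Lct* chr1:128284756-128328318, *Mgam* chr6:40628831-40769123, *Treh* chr9:44673233-44686305 and *Anpep* chr7:79821803-79861059. *Dpp4* spans chr2:62330073-62412231, *Mep1a* chr17:43474324-43502812, *Alpi* chr1:87098002-87101606 and *Slc5a1* chr5:33104219-33162870. *Treh* overlaps *Phldb1* on the opposite strand, which has 209 counts of its own, and the strand setting of the counting is not stated. For *Treh*, *Dpp4*, *Anpep* and *Slc5a1*, which overlap other gene models, counts could therefore include reads of the overlapping gene.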

How the data were processed

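Drop-seq counts of 6 collections, 3 per genotype, were analysed. The deposited values are counts, whole numbers per gene and cell barcode with no normalization, and reads were aligned with STAR 2.6 to mm10, per the submitters' processing notes. Annotation, strand setting and UMI collapsing were not stated. Total counts were 1228337 to 3146909 per collection. Kept cells were clustered with scanpy 1.11.5 and leidenalg 0.10.2 (2000 variable genes, 30 components, 15 neighbours, resolution 1.0), with the 9 genes left out. Clusters took their names from marker lists, counting a marker as enriched from 1.5-fold upward if 10% of cells or more had it. Proximal and ileal cells came from sub-clustering (1000 variable genes, 15 components), where at least 40% and at least 3 markers of the segment had to be enriched. The naming and segment thresholds were set after the data were seen. Doublets were not called or removed.

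CPM are member counts per 1000000 counts of a class. Genotype was tested with edgeR 4.0.16 (R 4.3.3; TMM, filterByExpr at a minimum count of 10), with DESeq2 1.42.0 as an alternative, on sums per biological replicate, after a test on simulated data. The sources do not say that the replicates came from separate mice, so p-values measure the spread between these samples. The planned tests within proximal and within ileal cells, and of genotype by segment, were not run, because single sums held as few as 7 cells. The members and gene lists were chosen with earlier results of these data known. Named from each list were genes past the test and up to 4 with the highest enterocyte-like level, and some items that this rule or the ranking by likeness selects are not reported here. Alternatives covered test, scaling, filters, clustering, replicate blocks and left-out collections. Those on shared barcodes and the share test over replicates were chosen after seeing the data. Gene positions used GENCODE, in which all 9 genes were found.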

Additional observations from a re-analysis of the deposited data

Results flagged for a closer look

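For *Alpi* in all kept cells, the log2 ratio of knockout to flox was 0.76 in the male replicate and -0.02 in the female replicate, a gap of 0.776. The female ratio, from 63 knockout and 56 flox UMIs, was too small to give a direction. These ratios are from the mean CPM of the collections. From counts summed per replicate the male ratio was 0.50, and without flox collection 2, which held 12 of the 95 flox UMIs, it was 0.28. Without flox collection 1, resting on those 12 flox UMIs, it was 1.51. Without knockout collection 1 it was 0.39 and without knockout collection 2 it was 0.60. For *Dpp4* in enterocyte-like cells the ratio was 0.12 in the male and -0.12 in the female replicate, a gap of 0.245. With 1 replicate of each sex per genotype these differences were not tested.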

How the results depend on the processing

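No gene of the 9 passed the genotype test under any of the 21 alternatives in all kept cells or the 24 in enterocyte-like cells. The sign was less stable: in enterocyte-like cells *Sis* turned in 6 of 24 (log2 fold changes from -0.61 to 0.31), *Anpep* in 1 (-0.20 to 0.95, smallest edgeR adjusted p = 0.318) and *Treh* in 2 (-1.16 to 0.42). For genes that passed neither fit, a turned sign was not counted as a reversal, a choice made after such turns were seen. Of all genes in all kept cells, 1 passed, against 35 with no filter on low counts, 3 with biological replicate as a replicate block, 22 within barcode set 1 and 12 within set 2. Leaving out collections or replicates gave 1 to 34, namely 15 when knockout collection 3 was left out, 33 for flox collection 3, 11 for knockout replicate 1 and 34 for flox replicate 1. In enterocyte-like cells 3 passed, against 1 by DESeq2, 19 with no filter, 7 at 600 genes per barcode, 0 without barcodes over 10000 counts, 1 with single collections as samples, 14 with collection number as a replicate block, 1 at Leiden resolution 0.5, 9 with the 9 genes kept for clustering, and 8 and 12 within barcode sets 1 and 2. Leave-outs there gave 1 to 27, with 24 without knockout collection 3 and 27 without flox collection 3. The cause was not tested. Same-numbered collections correlated in their deviations at -0.18, 0.06 and 0.41, so numbers 1 and 2 do not pair the collections, while collection 3 of both genotypes shares sex and barcode set. The block changed no call among the 9 genes. The share of enterocyte-like cells (knockout minus flox, -0.31 percentage points) turned to 0.74 with the 9 genes kept for clustering and to 0.38 at 600 genes per barcode, and ran from -1.08 to 0.43 over leave-outs, turning without knockout collection 3 (0.30) and without flox collection 3 (0.43). *Anpep*, proximal over ileal (log2 0.45), became -0.39 at sub-cluster resolution 2.0, -0.36 with the 9 genes kept for clustering and -0.41 when cells were split by marker UMIs. Tests within segments gave no value and so have no alternatives. Thinning to 300 or 1000 UMIs moved shares of cells with a UMI, as *Sis* shows (44.1% and 78.4%).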
